A study of Mus musculus with 3 samples.

Results

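Aquaporin 4 and the proteins that hold it at the astrocyte membrane were followed through single-nucleus RNA sequencing of the mouse lumbar spinal cord. The set is 5 genes, Aqp4, Dag1, Dmd, Dtna and Utrn, named by symbol among the 31040 genes of the count table, and all 5 were found there. The samples were 12 mice aged 90 days. Of these, 6 carried the SOD1G93A transgene, a mutant human SOD1 gene under its own human promoter in the line B6.Cg-Tg(SOD1*G93A)1Gur/J, which models amyotrophic lateral sclerosis, and 6 were wild-type (WT) littermates on the same C57BL/6J background. Each genotype had 3 females and 3 males, and every sex and genotype was present once in each of the pools A, B and C. The table held 14662 nuclei. Cell types, and sub-clusters of astrocytes, are the deposited ones.

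Aqp4 encodes the main water channel of the central nervous system, which is dense on the astrocyte endfeet that face blood vessels and the pia. The dystrophin-glycoprotein complex holds it there: dystroglycan (Dag1) spans the membrane and binds laminin outside, dystrophin (Dmd) links dystroglycan to actin inside, and alpha-dystrobrevin (Dtna) binds dystrophin inside the membrane. Utrophin (Utrn) is a close relative of dystrophin that can take its place in the complex and is prominent in blood vessel endothelium.

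In the mm10 (GRCm38) annotation the 5 genes differ widely in size. Aqp4 covers 21.5 kb of chromosome 18 (15389496 to 15410982, minus strand), and Dtna covers 244.58 kb of the same chromosome (23415135 to 23659715, plus strand). Dag1 covers 59.3 kb of chromosome 9 (108204634 to 108263958, minus strand), Utrn 487.18 kb of chromosome 10 (12382188 to 12869365, minus strand) and Dmd 2257.3 kb of the X chromosome (82948870 to 85206141, plus strand). Introns were counted, so a UMI (unique molecular identifier, 1 captured RNA molecule) of these genes came from exon or intron. The counts do not separate the 14 annotated Dmd transcripts, nor the 11 of Aqp4. No other gene of the table overlapped any member on its own strand.

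Depth differed between cell types. Astrocytes numbered 1555 nuclei, 45 to 250 per mouse, with 294711 to 1743993 UMIs per mouse. Their 5 marker genes (Aldh1l1, Slc1a3, Gja1, Gfap and Slc1a2) summed to 5704 to 8405 counts per 1000000 UMIs (CPM) in the 12 mice, against 101 to 199 CPM in neurons. Sod1, whose counts can take up transgene RNA, was higher in SOD1G93A astrocytes by 2.31 on the log2 scale (SE 0.16, FDR 3.99e-07). The nuclei labelled microglia went against their label, with a median of 46927 UMIs per nucleus against 5338 in astrocytes, and with microglial markers at 131 CPM against 2164 CPM of neuronal markers. Nuclei labelled Schwann and meningeal cells had a median of 1584 UMIs and held neuronal markers at 4464 CPM and astrocyte markers at 1700 CPM. Fibroblasts (46 nuclei from 10 mice) and ependymal cells (93 nuclei from 11 mice) were the thinnest types. Between the pools, 15 cell barcodes were found in more than 1 pool.

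Aqp4 was highest in astrocytes and Utrn in endothelial cells, while Dmd was broadly spread. These levels are CPM out of the UMIs of all genes, as a mean ± SD over mice, and they are descriptions only, because the types were made by clustering the same nuclei. Aqp4 was at 939 ± 314 CPM in astrocytes (n = 12), above every other type in mean. It was next highest, at 332 ± 157 CPM (n = 12), in nuclei labelled Schwann and meningeal cells, and astrocytes exceeded them in 12 of 12 mice. Ependymal cells held 135 ± 85.6 CPM (n = 11), oligodendrocytes 39.8 ± 10.8 CPM (n = 12) and neurons 12.4 ± 2.41 CPM (n = 12). The fibroblast mean of 220 ± 506 CPM (n = 10) rested on 21 UMIs, of which 14 came from the male WT mouse of pool A. From fibroblasts down to endothelial cells the SD ranges of neighbouring types overlapped. Astrocytes contributed 68.6% of the Aqp4 UMIs counted.

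Dtna had the same leader as Aqp4, at 1394 ± 147 CPM in astrocytes (n = 12). The next 8 types ran from 414 ± 51.2 CPM in nuclei labelled microglia to 316 ± 73.8 CPM in those labelled Schwann and meningeal cells, with every neighbouring pair overlapping within its SD. Endothelial cells were lowest for Dtna, at 43.3 ± 10.3 CPM (n = 12), below Schwann and meningeal nuclei in 12 of 12 mice.

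Utrn was ordered otherwise. Endothelial cells held 2343 ± 346 CPM (n = 12), fibroblasts 1075 ± 502 CPM (n = 10) and astrocytes 719.9 ± 43.7 CPM (n = 12), and endothelial cells exceeded fibroblasts in 10 of 10 mice with both. Motor neurons had 332 ± 85.3 CPM of Utrn against 133 ± 9.94 CPM in the other neurons (n = 12 each). Oligodendrocytes were lowest, at 85.4 ± 28.7 CPM.

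Dmd was highest in ependymal cells, at 3030 ± 885 CPM (n = 11), above oligodendrocyte precursor cells (OPCs) in 10 of 11 mice. OPCs, neurons and astrocytes followed at 1473 ± 232, 1362 ± 57.0 and 1331 ± 210 CPM (n = 12 each), and these 3 types did not differ beyond their spread. Endothelial cells, the leading type for Utrn, were last for Dmd, at 430 ± 100 CPM (n = 12). Neurons, at 8800 nuclei with a median of 12864 UMIs each, supplied 78.2% of the Dmd UMIs. Among the neuron sub-types, dorsal inhibitory neurons had the highest mean for both relatives: 2038 ± 133 CPM of Dmd, above ventral mixed neurons in 10 of 12 mice, and 211 ± 25.8 CPM of Utrn, above ventral cholinergic neurons in 11 of 12 mice, though the SD ranges of both pairs overlapped.

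Dag1 was low in all types, with means of 34.7 to 151 CPM. Ependymal cells and fibroblasts had the highest means, 151 ± 184 and 147 ± 114 CPM, on 28 and 39 UMIs. Endothelial cells held 104 ± 14.2 CPM and exceeded astrocytes, at 77.7 ± 9.18 CPM, in 12 of 12 mice (n = 12 each). Astrocytes, neurons (76.3 ± 6.31 CPM) and motor neurons (72.9 ± 18.7 CPM) did not differ beyond their spread, and oligodendrocytes were lowest, at 34.7 ± 12.7 CPM.

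**Figure D1:**
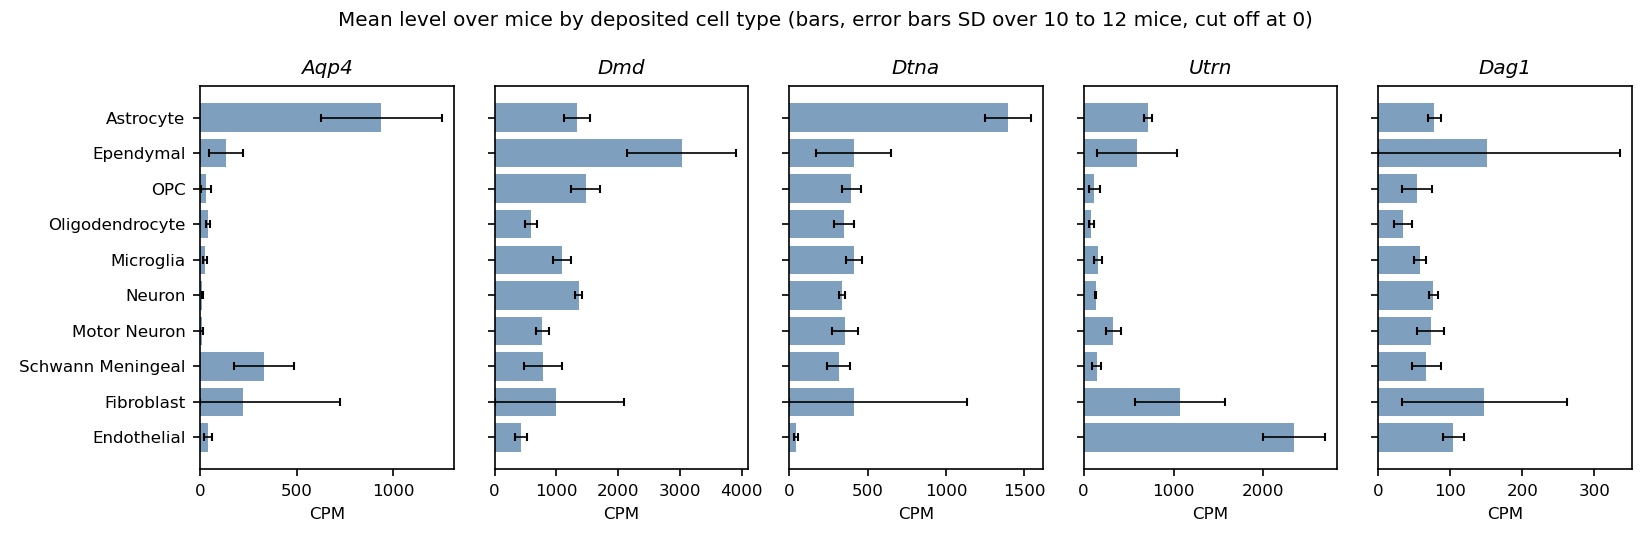
Mean level of each gene in the 10 deposited cell types, in CPM out of the UMIs of all genes (x axis, linear, with its own range in each panel); bars are means over 10 to 12 mice and error bars SDs, cut off at 0. Aqp4 and Dtna peak in astrocytes, at 939 and 1394 CPM, Utrn peaks in endothelial cells, at 2343 CPM, and Dmd in ependymal cells, at 3030 CPM.

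Per kb of gene, the order of levels within astrocytes changed. Whether UMIs scale with gene length in these libraries was not tested, so values per kb are descriptions and not measures of relative expression. Aqp4 had 43.7 ± 14.6 CPM per kb, Dtna 5.70 ± 0.60, Utrn 1.48 ± 0.09, Dag1 1.31 ± 0.15 and Dmd 0.59 ± 0.09 CPM per kb of gene (n = 12 each). Without division by length, Dtna and Dmd stood above Aqp4 in means over the 12 mice of both genotypes, whereas in SOD1G93A mice alone the mean of Aqp4 was above that of Dmd (1218 against 1173 scaled CPM).

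The genes most like each member over the 10 cell types were taken from 13884 genes that reached 10 CPM in at least 1 type, by Pearson's r of mean log2(CPM + 1). These correlations are descriptions over 10 points that share libraries and depth. For Aqp4 they were Mlc1 (r = 0.99), which encodes a membrane protein of astrocyte endfeet, Ntsr2 (r = 0.98), a neurotensin receptor, and Sdc4 (r = 0.96), a heparan sulfate proteoglycan. Dtna was most like Trim9, Wdr17 and Adgrb3 (r = 0.98, 0.97 and 0.97) and Dmd most like Slc44a3, Meis2 and Ky (r = 0.93, 0.93 and 0.92). Utrn was most like Smad6, Itpr1 and Arhgap42 (r = 0.95, 0.94 and 0.93), and Dag1 most like Luzp1, Plcb4 and P4ha2 (r = 0.92, 0.87 and 0.87). Among the members themselves r ran from -0.55 for Dtna with Utrn to 0.69 for Dag1 with Utrn, and Aqp4 had r = 0.11 with Dmd.

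The comparison of genotypes asked which genes differ between SOD1G93A and WT mice at this age within a cell type. In astrocytes Aqp4 was higher and Dmd lower in SOD1G93A mice, and the other 3 members did not pass the test. Values here are CPM after TMMwsp scaling of the UMIs of the tested genes. Fold changes and their errors are from limma's voom model, with the false discovery rate (FDR, Benjamini-Hochberg) taken over all 9347 genes tested in astrocytes and calls made at FDR under 0.1. All 5 members passed the filter on low counts.

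Aqp4 was at 606 CPM in the female and 806 CPM in the male WT mouse of pool A, at 646 and 758 CPM in pool B, and at 718 and 653 CPM in pool C. The SOD1G93A female and male had 1140 and 1125 CPM in pool A, 1509 and 1151 CPM in pool B, and 1268 and 1115 CPM in pool C. The groups did not overlap, since the lowest SOD1G93A mouse was above the highest WT mouse, which held for 0.481% of tested genes in this direction. The mean was 698 ± 75.8 CPM in WT and 1218 ± 153 CPM in SOD1G93A mice (SD, n = 6 each). The fitted log2 fold change was 0.80 (SE 0.11, FDR 1.30e-04), a 1.74-fold higher level, and the SOD1G93A mouse was higher in 6 of 6 pairs of the same sex and pool. By p-value Aqp4 ranked number 5 of all genes tested in astrocytes.

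Dmd moved the other way. WT females had 1489, 1292 and 1832 CPM and WT males 1558, 1559 and 1767 CPM in pools A, B and C, while SOD1G93A females had 991.5, 1158 and 1011 CPM and males 1184, 1267 and 1424 CPM. The groups overlapped, as the female WT mouse of pool B lay below the male SOD1G93A mouse of pool C. Within pairs the SOD1G93A mouse was lower in 6 of 6. Dmd fell by 0.43 on the log2 scale (SE 0.10, FDR 0.0361, n = 6 each). The call was less steady than that of Aqp4: it was lost, at FDR 0.100 to 0.144, when any of 5 mice was left out (the WT females of pools A and C, the WT male of pool C, the SOD1G93A female of pool C or the SOD1G93A male of pool A), with log2 fold changes of -0.44 to -0.38. Aqp4 was called with each of the 12 mice left out. The 2 members called can be read against 2.29% of tested genes called in either direction, 1.38% as higher and 0.909% as lower.

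The remaining anchor genes differed less. Dtna ran from 1341 through a median of 1590 to 1707 CPM in WT and from 1076 through 1356 to 1639 CPM in SOD1G93A mice, with a log2 fold change of -0.21 (SE 0.10, FDR 0.375) and a lower level in 4 of 6 pairs. Utrn ran from 695 through 777 to 868 CPM in WT and from 652 through 705 to 762 CPM in SOD1G93A mice, with a log2 fold change of -0.13 (SE 0.10, FDR 0.613). Dag1, on 761 UMIs in all, ran from 66.4 through 77.0 to 86.9 CPM in WT and from 74.2 through 81.6 to 92.1 CPM in SOD1G93A mice, with a log2 fold change of 0.10 (SE 0.14, FDR 0.809). For these 3 genes the groups overlapped.

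**Figure D2:**
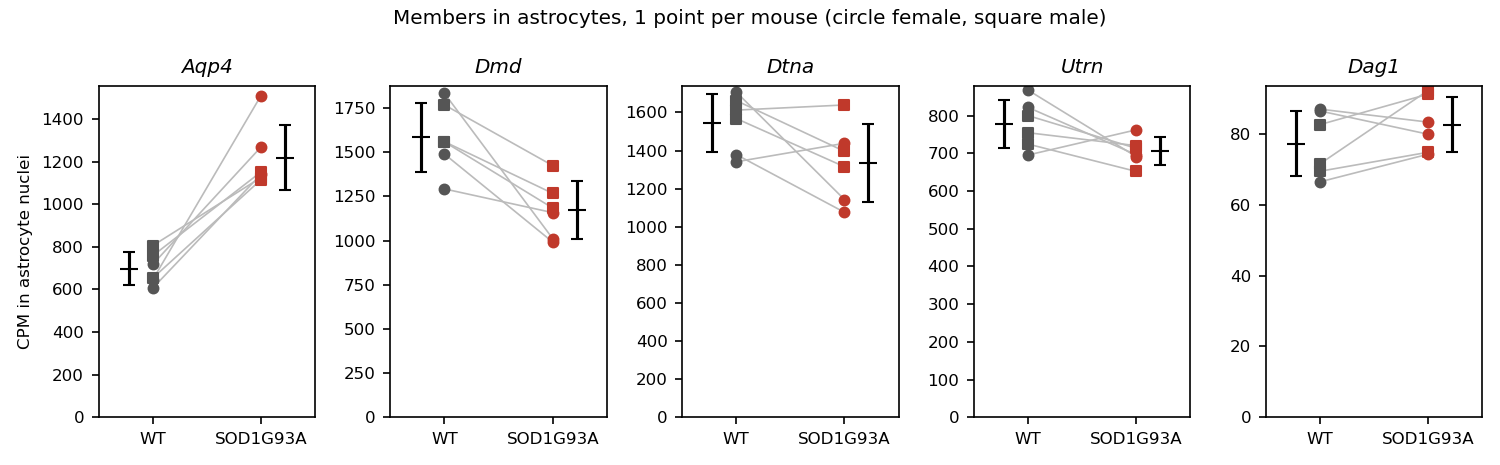
Scaled CPM of each member in astrocyte nuclei (y axis from 0) in WT and SOD1G93A mice; circles are females and squares males, grey lines join mice of the same sex and pool, and bars beside them give the mean and SD of 6 mice. The 6 SOD1G93A mice sit between 1115 and 1509 CPM for Aqp4, all above the WT mice at 606 to 806 CPM, and every line for Dmd falls.

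Other measures moved with genotype in the same nuclei. The median share of mitochondrial UMIs per astrocyte nucleus was 0.570% to 1.31% in WT and 1.12% to 2.33% in SOD1G93A mice. Over nuclei with at most 1% mitochondrial UMIs (783 of 1555), Aqp4 had a log2 fold change of 0.98 (SE 0.13, FDR 4.36e-04). Dmd had one of -0.42 (SE 0.12, FDR 0.105), so that its call was lost at a fold change near that over all nuclei. All genes gave 102 calls in 6684 tests in this subset, against 214 in 9347 over all astrocyte nuclei. Summed neuronal markers (4 genes, each detected) were at 601 to 1000 CPM in WT and 653 to 1439 CPM in SOD1G93A astrocytes, and summed oligodendrocyte markers (4 genes, each detected) at 539 to 987 and 843 to 1593 CPM. Over the 1178 nuclei with at most 0.2% of their UMIs on these markers, Aqp4 was at 0.78 (SE 0.10, FDR 4.90e-05). Dmd was at -0.36 there (SE 0.08, FDR 0.0141), and all genes gave 160 calls in 7911 tests. These subsets were chosen after seeing the data.

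The balance of Aqp4 to its anchor genes was compared within each mouse, where the total count cancels. Against Dmd, WT astrocytes had 0.370 to 0.517 Aqp4 UMIs per Dmd UMI (median 0.447) and SOD1G93A astrocytes 0.783 to 1.30 (median 1.05). The groups did not overlap, as they did not for Aqp4 alone. How many other genes would give such a separation as divisor was not counted. The log2 ratio to Dmd was higher by a mean of 1.24 ± 0.33 (SD over 6 pairs). Against Dtna the ratio was 0.393 to 0.514 in WT and 0.702 to 1.11 in SOD1G93A mice, a log2 difference of 1.02 ± 0.31. Against Utrn it was 0.699 to 1.11 and 1.56 to 1.98, a log2 difference of 0.94 ± 0.24, and against Dag1 7.43 to 11.6 and 12.2 to 18.1, a log2 difference of 0.70 ± 0.38. Each ratio was higher in the SOD1G93A mouse in 6 of 6 pairs. Each had p = 0.031 in a two-sided exact permutation test over 6 pairs, the smallest p that 6 pairs can give, and 0.031 after Benjamini-Hochberg adjustment over the 4 ratios, which share the Aqp4 count and so are not independent of one another or of the fold change above.

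**Figure D3:**
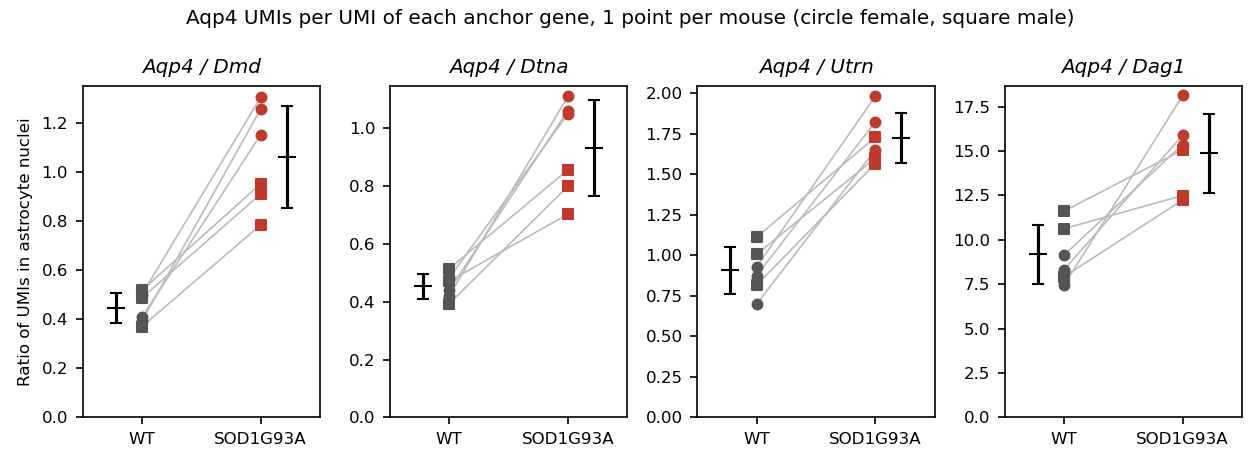
Aqp4 UMIs divided by the UMIs of each anchor gene in the astrocyte nuclei of a mouse (y axis, linear from 0), in WT and SOD1G93A mice; circles are females and squares males, lines join mice of the same sex and pool, and bars give the mean and SD of 6 mice. The genotypes are separate in all 4 panels, as they are for Aqp4 alone, and the median ratio to Dmd is 0.447 in WT and 1.05 in SOD1G93A mice.

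A larger share of astrocyte nuclei had an Aqp4 UMI in SOD1G93A mice. With each nucleus thinned to 2000 UMIs, which kept 880 of 927 WT and 599 of 628 SOD1G93A nuclei, 61.7% ± 4.44 of WT and 77.3% ± 4.74 of SOD1G93A astrocytes had one (SD, n = 6 each). The unthinned means were 81.1% and 91.0%. The difference of 15.6 percentage points (SD 6.51 over 6 pairs, higher in 6 of 6) had p = 0.031 in the exact permutation test and 0.0781 after adjustment over the 5 members. In neurons, which are not known to make the channel, the thinned share was 2.94% in WT and 2.67% in SOD1G93A mice, unthinned 15.1% and 13.3%, with a median of 12864 UMIs per neuron nucleus. For Dmd the thinned share in astrocytes was 88.4% ± 2.97 in WT and 84.2% ± 4.09 in SOD1G93A mice, lower in 6 of 6 pairs with the same p-values.

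Aqp4 varied strongly between the 5 astrocyte sub-clusters, which were set from the same values, so the levels are descriptions. On the scale of all UMIs it was at 2123 ± 423 CPM in sub-cluster 3, 1309 ± 430 in sub-cluster 4, 1001 ± 251 in sub-cluster 0, 406 ± 163 in sub-cluster 1 and 249.6 ± 118 in sub-cluster 2 (n = 12 each). Sub-cluster 3 exceeded sub-cluster 4, and sub-cluster 0 exceeded sub-cluster 1, in 12 of 12 mice. Dmd had nearly the opposite order, with 1680 ± 309 CPM in sub-cluster 1, 1355 ± 142 in sub-cluster 0, 1349 ± 393 in sub-cluster 2, 946 ± 162 in sub-cluster 4 and 896 ± 162 in sub-cluster 3, although neighbours overlapped within their SD. Dtna was also highest in sub-cluster 1, at 1727 ± 305 CPM, and lowest in sub-cluster 2, at 918 ± 215 CPM. Utrn ran from 897 ± 181 CPM in sub-cluster 3 to 493 ± 90.1 CPM in sub-cluster 2, and Dag1 from 92.7 ± 41.5 to 64.4 ± 33.0 CPM between the same sub-clusters. Sub-cluster 2, lowest in Aqp4, Dtna, Utrn and Dag1, also had the lowest summed astrocyte markers, at 3206 CPM against 6068 to 9040 CPM in the other sub-clusters, and the highest summed neuronal markers, at 1861 CPM against 344 to 1393 CPM. Summed oligodendrocyte markers were at 1899 CPM in sub-cluster 4 and at 461 to 1194 CPM in the others. The part of these transcripts in the levels was not tested.

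Within each sub-cluster the fitted log2 fold change of Aqp4 was positive, at 0.38 to 0.57 against 0.80 in all astrocytes, but it passed the test in none, and the difference between these values was not tested. No member was called in a sub-cluster by limma in 23 tests, of which 5 had an unadjusted p under 0.05, and edgeR and DESeq2 called 0. Over the 5 sub-clusters together 0.0595% of tests of all genes gave a call. Aqp4 levels in this paragraph are scaled CPM of the tested genes and run above those on the scale of all UMIs. In sub-cluster 3 the WT mice had 1752, 2452 and 2691 CPM of Aqp4 as lowest, median and highest. The SOD1G93A mice had 2533, 2887 and 3506 CPM there. The limma log2 fold change was 0.38 (SE 0.12, unadjusted p = 0.00354, FDR 0.324), with a higher level in 6 of 6 pairs. In sub-cluster 0 the WT mice had 818, 981.5 and 1055 CPM and the SOD1G93A mice 679.5, 1340 and 1632 CPM, with a log2 fold change of 0.41 (SE 0.13, FDR 0.611) and a higher level in 5 of 6 pairs. The log2 fold change was 0.51 in sub-cluster 1 (SE 0.17, FDR 0.298, higher in 4 of 6 pairs), 0.57 in sub-cluster 2 (SE 0.27, FDR 0.943, 5 of 6 pairs) and 0.39 in sub-cluster 4 (SE 0.20, FDR 0.981, 3 of 6 pairs). The groups overlapped in every sub-cluster. In sub-cluster 4 the summed neuronal markers were at 591 to 1336 CPM in WT and 531 to 2893 CPM in SOD1G93A mice (means 925 and 1861 CPM), and in sub-cluster 3 the astrocyte markers were at 5661 to 9189 and 7531 to 9959 CPM. The astrocyte sum holds Gfap and Gja1, which were called higher in all SOD1G93A astrocytes (log2 fold changes 1.12 and 0.43). Its other genes, Slc1a2, Aldh1l1 and Slc1a3, had 0.09, -0.20 and -0.14 and were not called. The part of these marker transcripts in the fold changes was not tested. Dmd had log2 fold changes of -0.18, -0.32 and -0.38 in sub-clusters 0, 1 and 2 and of 0.05 and 0.11 in sub-clusters 3 and 4, with FDR of 0.298 or more. Dag1 passed the filter on low counts in sub-clusters 0, 1 and 3 alone, and the other members in all 5.

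The mean shares of some sub-clusters differed between genotypes, which was not tested. Sub-cluster 1, low in Aqp4 and high in Dmd, held 36.9% ± 6.30 of a WT mouse's astrocyte nuclei and 14.7% ± 6.00 of a SOD1G93A mouse's (n = 6 each), and the groups did not overlap (26.9% to 42.6% against 4.81% to 21.6%). Sub-cluster 3, high in Aqp4, held 9.35% ± 1.87 and 18.9% ± 6.41. Sub-cluster 4 held 7.53% ± 5.65 and 17.6% ± 8.93, with overlap (2.63% to 17.65% against 7.87% to 33.3%). Sub-cluster 0, at 30.5% ± 5.32 and 35.6% ± 8.47, and sub-cluster 2, at 15.8% ± 7.9 and 13.25% ± 9.65, overlapped as well. A mouse had as few as 3 nuclei in a sub-cluster. The shares of a mouse sum to a whole, so they are not separate results. With the sub-clusters' shares of UMIs held at their mean over the 12 mice, a weighting added after seeing the data, Aqp4 was at 807 ± 99.3 CPM in WT and 1067 ± 179 CPM in SOD1G93A mice. The log2 difference over pairs was then 0.40 ± 0.26, against 0.88 ± 0.25 with each mouse's own shares on the same unscaled values, and it was positive in 6 of 6 pairs in both (exact permutation p = 0.031 each, adjusted over the 5 members 0.156 and 0.0781). For Dmd the log2 difference was -0.19 ± 0.19 with fixed shares (lower in 5 of 6 pairs, exact p = 0.0625) and -0.35 ± 0.19 with own shares (exact p = 0.031). Because Aqp4 was among the values that made the sub-clusters, their shares and its level cannot be told apart as separate changes.

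**Figure D4:**
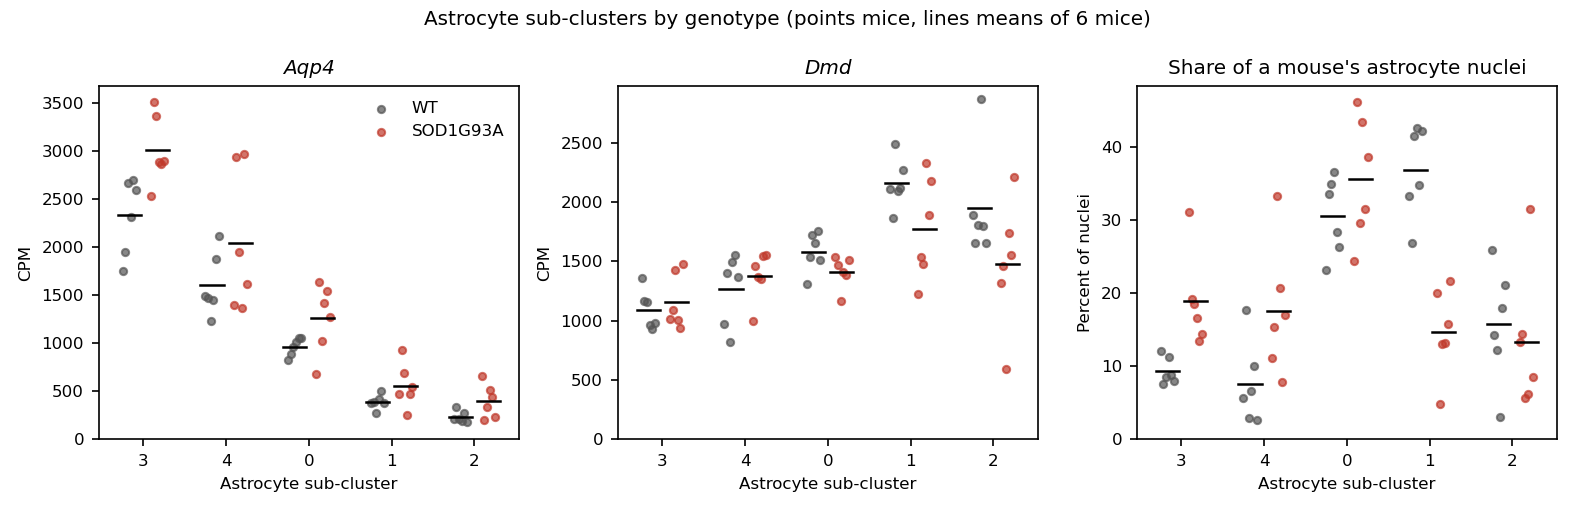
Scaled CPM of Aqp4 and Dmd (left and middle) and the percent of a mouse's astrocyte nuclei (right) in the 5 astrocyte sub-clusters, ordered by Aqp4; grey points are WT and red points SOD1G93A mice, and black lines are means of 6 mice. Sub-cluster 1 drops from a mean of 36.9% to 14.7% of nuclei, and the mean of Aqp4 is higher in SOD1G93A mice in each sub-cluster.

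No member was called for genotype in the other 9 cell types by limma, in 40 tests of which 2 had an unadjusted p under 0.05. Over these types together 0.298% of tests of all genes gave a call with limma, and 157 of these 178 calls were in motor neurons. DESeq2 called 2, Dtna in oligodendrocytes and in fibroblasts, and edgeR 0. Dtna in fibroblasts rested on 91 UMIs, of which 47 came from the SOD1G93A female of pool A. The share of all genes called by DESeq2 is not given here. Aqp4 did not pass the filter on low counts in ependymal cells, fibroblasts and motor neurons, nor Dag1 in ependymal cells and fibroblasts. Levels in this paragraph are scaled CPM of the tested genes. Dtna in oligodendrocytes came nearest to the threshold. It was at 343.5, 415 and 469.6 CPM (lowest, median and highest) in WT and 258.5, 303.5 and 327 CPM in SOD1G93A mice, which did not overlap (0.181% of tested genes in this direction), and it was lower in 6 of 6 pairs (log2 fold change -0.44, SE 0.09, unadjusted p = 1.58e-04, FDR 0.185). The other unadjusted p under 0.05 was that of Aqp4 in nuclei labelled Schwann and meningeal cells, at 445 ± 161 CPM in WT and 295 ± 84.1 CPM in SOD1G93A mice (log2 fold change -0.49, SE 0.22, FDR 0.999, n = 6 each).

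Utrn and Dmd were not called in the types where they were highest. Utrn in endothelial cells had a log2 fold change of 0.16 (SE 0.15, FDR 0.980), and Dmd had 0.00 in ependymal cells (SE 0.24, FDR 0.999) and -0.06 in neurons (SE 0.06, FDR 1.00). Motor neurons are the cells lost in this disease. They had -0.16 for Dmd (SE 0.15), 0.20 for Dtna (SE 0.16), -0.08 for Utrn (SE 0.18) and 0.10 for Dag1 (SE 0.24). None was called, beside 157 of the 5118 genes tested in motor neurons.

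**Figure D5:**
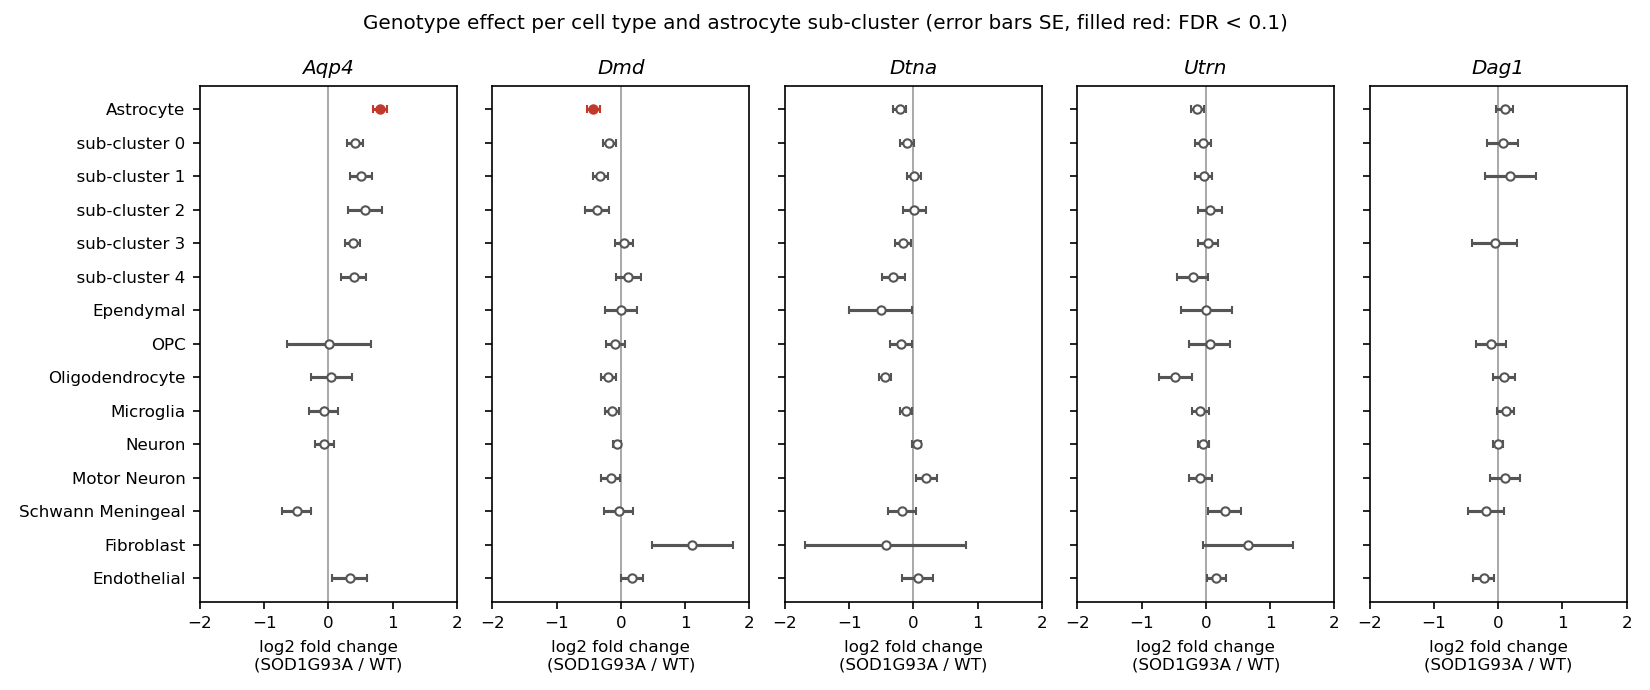
Fitted log2 fold change of each member, SOD1G93A over WT (x axis), in astrocytes, the 5 astrocyte sub-clusters and the other 9 cell types; error bars are SEs, filled red points have FDR under 0.1, and a row without a point did not pass the filter on low counts. Aqp4 at 0.80 and Dmd at -0.43 in astrocytes are the called values, and Aqp4 lies right of 0 in every sub-cluster.

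Between the sexes, limma called 2 members in 68 tests over all types and sub-clusters, both in the nuclei labelled microglia. Of the tests of all genes, 0.205% gave a call over all types and sub-clusters and 0.434% in these nuclei. Aqp4 was at 15.7, 37.7 and 40.3 CPM (lowest, median and highest) in females and 10.6, 17.6 and 20.9 CPM in males. The groups overlapped through the SOD1G93A female of pool C, the lowest female, and the female was higher in 5 of 6 pairs of the same genotype and pool (log2 difference, female minus male, 1.26, SE 0.23, FDR 0.0131). Utrn was at 174, 199 and 230 CPM in females and 86.8, 133 and 143 CPM in males, without overlap, as for 0.217% of tested genes in this direction (0.69, SE 0.13, FDR 0.0182). The call of Aqp4 was lost without the SOD1G93A female of pool B (FDR 0.391) or the SOD1G93A male of pool A (FDR 0.125), and that of Utrn without that female (FDR 0.105). In the same nuclei the 5 astrocyte markers summed to 367 to 566 CPM in females and 197 to 417 CPM in males, with Gfap and Slc1a2 among the genes called, and the median was 38357 UMIs per nucleus in females and 54907.5 in males. The part of these astrocyte transcripts in the result was not tested. In astrocytes Aqp4 differed between the sexes by 0.01 (SE 0.11) and no member was called. Over all types and sub-clusters edgeR called 2 members, the same as limma. DESeq2 called 4, adding Dtna in fibroblasts and Dmd in OPCs. Its share of calls over all genes is not given here. Dmd in OPCs was lower in females in 6 of 6 pairs (limma log2 difference -0.42, SE 0.15, FDR 0.299). It was also called by limma when the WT male of pool B was left out.

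The effect of genotype did not differ by sex past the threshold for any member. In astrocytes the log2 fold change of Aqp4 was 0.99 in females and 0.61 in males, a difference (male minus female) of -0.38 (SE 0.21, unadjusted p = 0.0832, FDR 1.00), and Dmd had -0.53 in females and -0.34 in males, a difference of 0.19 (SE 0.21, FDR 1.00). Over all types and sub-clusters limma called 0 of 68 tests, with 5 at an unadjusted p under 0.05, edgeR 0 and DESeq2 1, which was Dtna in fibroblasts. Of the tests of all genes, 0.00816% gave a call for this difference with limma. The lowest p was that of Aqp4 in sub-cluster 1, where the log2 fold change was 1.05 in females and -0.03 in males (unadjusted p = 0.00314, FDR 0.902).

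Other genes around the anchor were counted from fixed lists. Of 15 further genes of the dystrophin-glycoprotein complex, 12 were tested in astrocytes and 0 were called by limma, edgeR or DESeq2 or had an unadjusted p under 0.05. Among all 9347 genes tested, limma called 2.29% and gave 1270 an unadjusted p under 0.05. The median log2 fold change of the 12 was -0.12 against 0.02 over all genes tested. The most abundant were Sgcz, a sarcoglycan, at 944 ± 251 CPM in WT and 1157 ± 525 CPM in SOD1G93A mice, Sntg1, a syntrophin, at 302 ± 40.9 and 358 ± 130 CPM, and Sgcd, a sarcoglycan, at 244 ± 119 and 167 ± 43.0 CPM (n = 6 each).

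Of 9 ligands of dystroglycan, 5 were tested, 0 rose and 1 fell, with a median of -0.33, beside 0.909% of all tested genes called as lower. Lama2, a laminin chain that dystroglycan binds, was at 532 to 716 CPM in WT and 283 to 541 CPM in SOD1G93A astrocytes and fell by 0.60 on the log2 scale (SE 0.12, FDR 0.0100, n = 6 each). Nrxn3, a neurexin of the synapse, was at 2558 ± 442 CPM in WT and 2194 ± 328 CPM in SOD1G93A mice, with FDR of 0.459. Of 18 genes that place sugars on dystroglycan, 9 were tested and 0 were called by any of the 3 tools or had an unadjusted p under 0.05, with a median of 0.06. Limma called 2.29% of all genes tested. Among them Ispd was at 102 ± 14.3 CPM in WT and 109 ± 14.4 CPM in SOD1G93A mice (n = 6 each).

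Of 9 genes of the endfoot and of water and potassium balance, 8 were tested, 2 rose and 0 fell, with a median of 0.02, beside 1.38% of all tested genes called as higher and 0.909% as lower. Gja1, the gap junction protein connexin, went from 609 ± 75.5 to 819 ± 127 CPM (log2 fold change 0.43, SE 0.11, FDR 0.0491), and Mlc1, the gene whose pattern over cell types was nearest to that of Aqp4, from 91.5 ± 7.55 to 123 ± 12.9 CPM (0.44, SE 0.13, FDR 0.0977, n = 6 each). The call of Mlc1 was lost with edgeR (FDR 0.120) and DESeq2 (FDR 0.132). Among the most abundant of this list, the glutamate transporter Slc1a2 and the bicarbonate transporter Slc4a4 had log2 fold changes of 0.09 and -0.22, neither of them called. Of 11 other aquaporins, 1 was tested and 0 were called by any of the 3 tools. This was Aqp9, at 20.7 ± 5.20 CPM in WT and 14.7 ± 3.61 CPM in SOD1G93A mice (log2 fold change -0.42, SE 0.25, FDR 0.473). Aqp11 and Aqp6 were next in level, at means of 7.78 and 2.71 CPM in WT and 5.09 and 2.15 CPM in SOD1G93A mice. In the other 9 cell types limma called 0 of 228 tests of these lists for genotype, with 13 at an unadjusted p under 0.05, while edgeR and DESeq2 called 1 each, Slc4a4 in OPCs, which had a lower level in SOD1G93A mice (FDR 0.0862 and 0.0789). In the sub-clusters 0 of 110 tests were called by any of the 3 tools, with 13 at an unadjusted p under 0.05. Over all genes limma called 0.298% of tests in the other 9 types (157 of these 178 calls in motor neurons) and 0.0595% in the sub-clusters.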

How the data were processed

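Nuclei from the lumbar cord of 4 mice were hashtagged and pooled, giving 3 pools sequenced with 10x chemistry. The authors deposited counts, whole UMIs per gene and nucleus from Cell Ranger 3.1 on a pre-mRNA reference of mm10, unnormalised, with hashtag singlets of at least 200 genes. The percent of mitochondrial UMIs per nucleus is the deposited value. Doublets within 1 mouse were not marked.

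UMIs were summed per mouse and deposited cell type or sub-cluster. Genes were filtered with filterByExpr (minimum count 10), scaled with TMMwsp factors and fitted with limma 3.58.1 (voom, robust eBayes) in R 4.3.3, with terms for the 4 sex and genotype groups and for pool. The code was tested on simulated data. Pairs are mice of the same sex and pool. Over astrocyte genes, deviations from group means had a median correlation of 0.03 between mice of the same pool and -0.02 between pools.

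The members, lists and tests were chosen with earlier results of these data known. The rule for named genes took the members in every type, list genes called for genotype plus the 3 most abundant per list in astrocytes, and the 3 genes most like each member. Some genes that this rule names are not reported here. edgeR 4.0.16 and DESeq2 1.42.0, TMM or no scaling, no filter or a minimum count of 30, no pool term, non-robust eBayes and leaving out each mouse were the alternatives. Listed symbols absent from the table were matched through RefSeq synonyms. Intervals and SDs over few nuclei also hold counting error. The deposited integrated values and the table of mice were not used for tests.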

Additional observations from a re-analysis of the deposited data

Results flagged for a closer look

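Groups of 5 or 6 mice were a member in a cell type or sub-cluster of 1 genotype, in scaled CPM. Of 150 such groups, 14 held a mouse far from the others. Chance alone gives about 1 in 20 for normally distributed values, which CPM on few UMIs need not be. None of them was in astrocytes as a whole. Among the sub-clusters, Dag1 stood apart in the WT female of pool B (124 CPM, sub-cluster 1), in the SOD1G93A female of pool B (0 CPM, sub-cluster 1) and in the SOD1G93A male of pool C (193 CPM, sub-cluster 4). Utrn stood apart in the WT female of pool A in sub-cluster 1 (1057 CPM), and Dmd in the WT male of pool A in sub-cluster 2 (2867 CPM) and the SOD1G93A female of pool A in sub-cluster 4 (994.8 CPM). In fibroblasts the WT male of pool A had 3597 CPM of Aqp4 on 14 UMIs, and the SOD1G93A female of pool A had 142 CPM of Aqp4 on 1 UMI and 6676 CPM of Dtna on 47 UMIs. In ependymal cells Dag1 was at 841 CPM on 5 UMIs in the WT male of pool C. It was at 1604 CPM on 6 UMIs in the SOD1G93A female of pool A. Aqp4 was at 33.2 CPM in motor neurons of the WT male of pool A. It was at 460 CPM in Schwann and meningeal nuclei of the SOD1G93A female of pool C. Dtna was at 270.0 CPM on 4 UMIs in OPCs of that female, against 411 CPM in the nearest mouse.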

How the results depend on the processing

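For the 5 members in astrocytes, the direction of the genotype effect was kept in each of 20 alternatives per member, 12 of which leave out 1 mouse. Without the pool as replicate block, 2 members were called in astrocytes, as with it. Leaving out each mouse gave 1 to 2 members called in astrocytes, 0 to 1 in the sub-clusters and 0 to 3 between the sexes. Nuclei with at most 1% mitochondrial UMIs left 1 member called in astrocytes. DESeq2 called 2 members in the other cell types, 4 between the sexes and 1 for the sex by genotype difference. Each of these counts includes Dtna in fibroblasts. Without a filter on low counts, 2 were called for genotype in the sub-clusters (Dmd in sub-cluster 1 and Aqp4 in sub-cluster 3), 4 between the sexes and 1 for the sex by genotype difference. The causes were not tested. Over all alternatives fitted across genes, the FDR in astrocytes ran from 6.26e-08 to 0.00312 for Aqp4 and from 0.00549 to 0.144 for Dmd. Without 1 pair, the log2 ratio difference was 1.15 to 1.31 for Aqp4 to Dmd, 0.95 to 1.11 to Dtna, 0.88 to 0.999 to Utrn and 0.58 to 0.79 to Dag1, and 5 pairs cannot give a p under 0.0625. Few nuclei limit the fibroblast, ependymal and sub-cluster values.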
